A study of Mus musculus with 8 samples.

Results

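The genes described here encode enzymes and related proteins that are switched on by the transcription factor NRF2, the product of Nfe2l2. They are Gclc, Gclm and Gsr of glutathione metabolism, Txnrd1 and Srxn1 of the thioredoxin system, G6pdx and Taldo1 of the pentose phosphate pathway, which supplies NADPH, and Nqo1, Hmox1 and Osgin1. Members were taken by gene symbol, current or older, from the probes of the deposited value table. This gave 11 of the 16304 probes, for 8 of the 10 genes: Srxn1 had 3 probes, Nqo1 had 2, and Hmox1, Gclc, Gclm, Txnrd1, Taldo1 and Osgin1 had 1 each. No probe of Gsr or G6pdx was named in the annotation used, so their levels are not analysed here.

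NRF2 is held in the cytoplasm and sent for degradation by KEAP1. Electrophiles and oxidants modify KEAP1, NRF2 then accumulates in the nucleus, pairs with a small MAF protein and binds antioxidant response elements of its target genes, where BACH1 competes with it as a repressor. In hepatocytes this programme is known for keeping glutathione and thioredoxin reduced and for handling quinones, heme and xenobiotics.

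Metformin arrays came from 4 wells of primary hepatocytes of male C57Bl6/J mice given 500 µM metformin, a biguanide drug, for 24 h, and control arrays from 4 wells of the same kind of cells without it. The labels name no vehicle for the control wells. Both groups held hepatocytes freed from the liver with collagenase, a preparation that can carry other liver cells along. Total RNA was read on an Illumina mouse bead array, 1 array per well. Whether the 4 wells represent separate animals is not stated in the labels. Every p-value therefore covers the spread between wells, part of which may be technical, and is not known to cover spread between animals.

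Values are log2 intensities, and a difference of 1 is a 2-fold difference on the linear scale. They ran from 4.16 to 14.4, the median of every array was 6.48, and the number of arrays limits the precision. Of 15 hepatocyte markers 13 were measured, at levels between 4.69 and 14.2, and 0 passed the test described below (1 at an unadjusted p under 0.05). With metformin 6 had higher and 7 lower means, with a median change of -0.02. The 1 was Tdo2, a tryptophan dioxygenase, at a dim probe (-0.75 ± 0.32, SE, limma adjusted p = 0.202). Hnf4a, a transcription factor of hepatocyte identity, averaged 10.18 ± 0.06 in metformin wells and 10.07 ± 0.18 in control wells (SD, n = 4 each). The single probe of Alb, which encodes albumin, was dim, at 6.05 ± 0.35 in metformin wells and 5.65 ± 0.29 in control wells (SD, n = 4 each).

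The comparison asks whether a day of metformin changed the transcripts of the NRF2 programme. Gclc, the catalytic subunit of the enzyme that starts glutathione synthesis, fell to about 0.53 of its control level, and it was the only 1 of the 11 probes past the threshold of a limma adjusted p of 0.05. The other 10 probes did not pass, and 0 were called higher. Of all probes on the array 5.64% were called in either direction, 2.93% lower and 2.72% higher, so that 1 of 11 is close to the background. At an unadjusted limma p under 0.05 the members held 2 probes, Gclc and Taldo1, where 23% of all probes reached it. The median change of the 11 probes was -0.09 log2 units, against 0.003 over all probes, and the median size of the change regardless of sign was 0.15 log2 units, against 0.20. In bulk samples fewer cells of a type and less RNA per cell cannot be told apart.

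**Figure D1:**
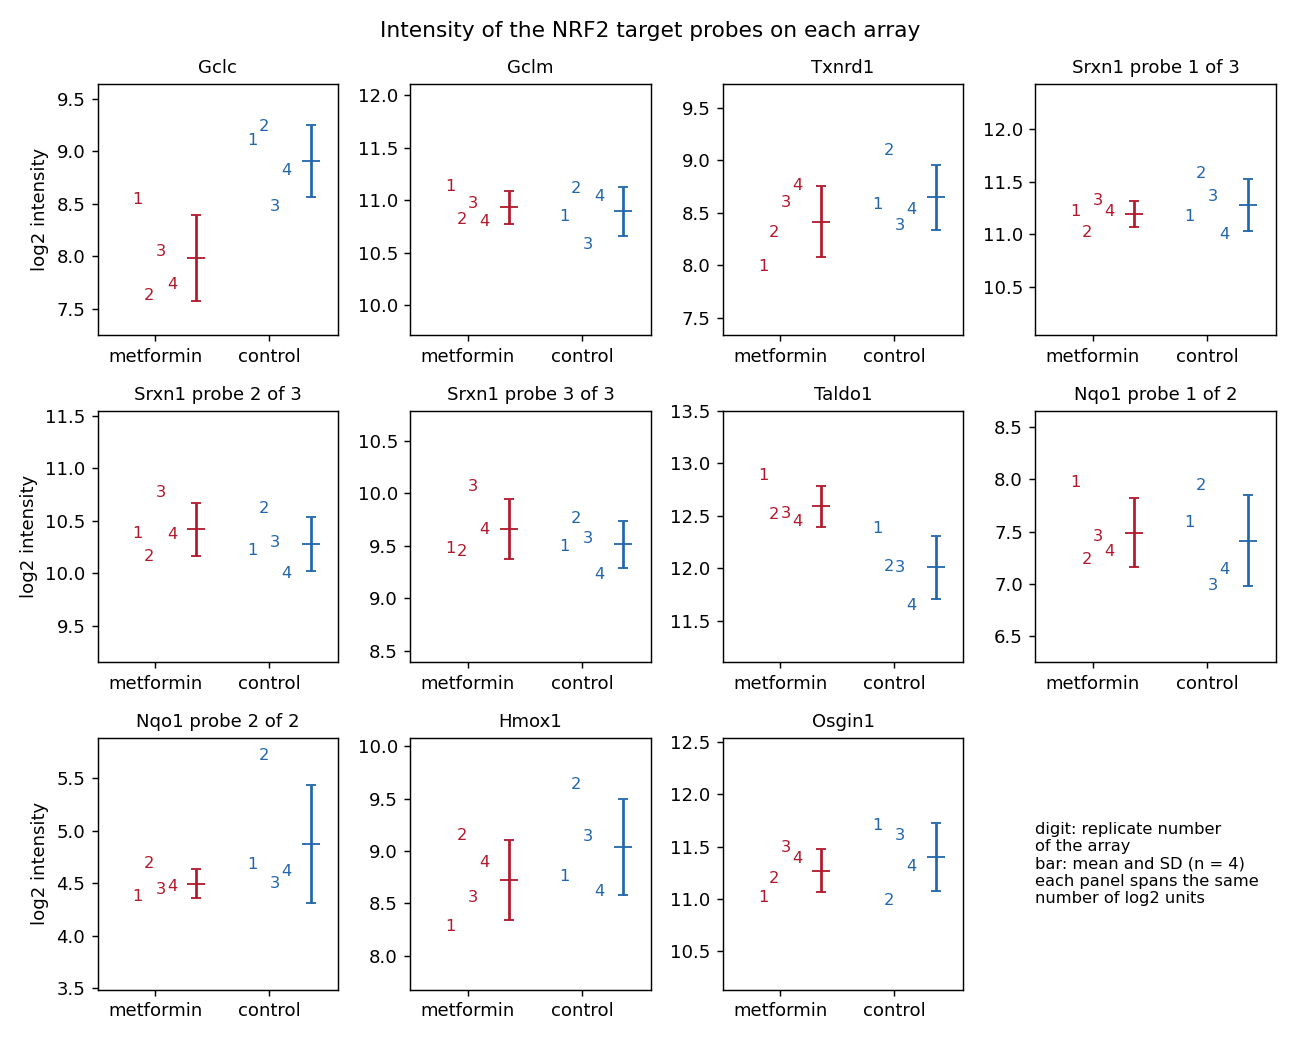
Log2 intensity of the 11 probes on each array, 1 panel per probe, with the 4 metformin arrays on the left and the 4 control arrays on the right, each drawn as its replicate number beside the group mean and SD. The mean of Gclc was lower and that of Taldo1 higher with metformin, and the groups overlapped on every probe but that of Taldo1. Control replicate 2 was the highest control array in 9 of the 11 panels.

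Glutamate-cysteine ligase joins glutamate and cysteine in the first and rate-limiting step of glutathione synthesis. It consists of a catalytic subunit, encoded by Gclc, and a modifier subunit, encoded by Gclm, which raises the activity of the enzyme. The Gclc probe (ILMN_2608016) read 8.54, 7.62, 8.04 and 7.73 in metformin replicates 1 to 4, against 9.10, 9.24, 8.47 and 8.81 in control replicates 1 to 4. Metformin replicates 2, 3 and 4 lay below every control array, and metformin replicate 1 lay 0.07 log2 units above the lowest control array, so the groups overlapped narrowly. Gclc averaged 7.98 ± 0.41 in metformin wells and 8.91 ± 0.34 in control wells (SD, n = 4 each), a change of -0.92 ± 0.23 log2 units (± SE) with a 95% interval of -1.43 to -0.41 and a limma adjusted p of 0.0468. An exact two-sided permutation test of the same difference over the 70 splits of the arrays gave p = 0.0571, where 4 against 4 arrays can go no lower than 0.0286.

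The call for Gclc lay close to the threshold, at rank 871 by p among all probes. Its direction was the same in every fit that left out 1 array, with changes between -1.11 and -0.80 log2 units, but it passed only without metformin replicate 1 (limma adjusted p = 0.0241). The limma adjusted p was 0.0785 without control replicate 1, 0.113 without control replicate 2, 0.0581 without control replicate 3 and 0.0888 without control replicate 4. It was 0.124 without metformin replicate 2, 0.119 without metformin replicate 3 and 0.0949 without metformin replicate 4.

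The modifier subunit did not pass. The Gclm probe (ILMN_1256354) read 11.13, 10.82, 10.97 and 10.80 in metformin replicates 1 to 4, against 10.84, 11.11, 10.58 and 11.04 in control replicates 1 to 4. Both groups lay on either side of each other's mean, with a change of 0.04 ± 0.15 log2 units and a 95% interval of -0.29 to 0.37 (limma adjusted p = 0.909). The Gclc value minus the Gclm value of each array was also taken, for a pair chosen after its values were seen and therefore as a description without a test. This difference was -2.59, -3.20, -2.93 and -3.06 in metformin replicates 1 to 4, against -1.74, -1.87, -2.11 and -2.22 in control replicates 1 to 4, so every metformin array lay below every control array. The means differed by -0.96 log2 units, and by -1.08 to -0.88 when 1 array at a time was left out. This does not show that Gclm was unchanged.

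**Figure D2:**
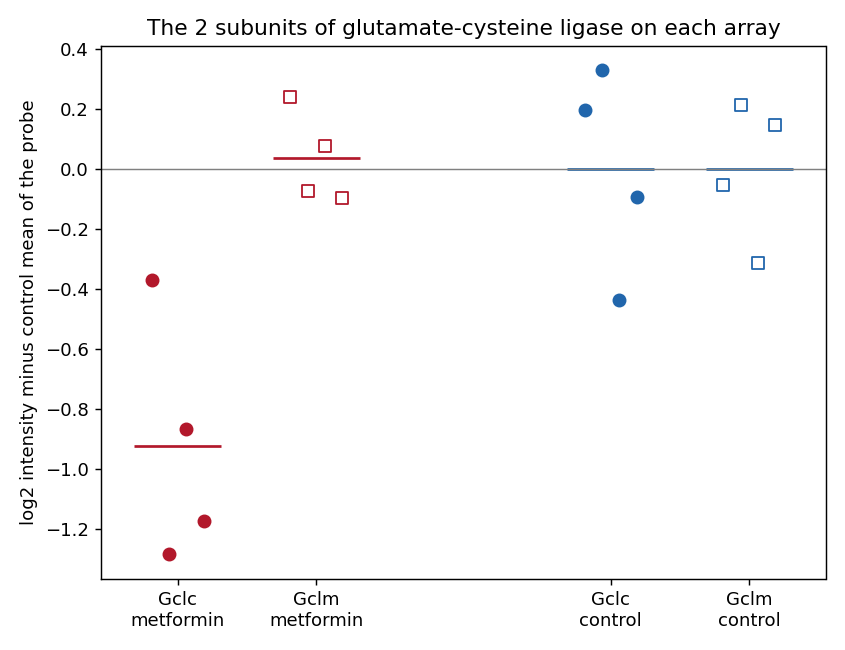
Log2 intensity of the Gclc probe (filled circles) and of the Gclm probe (open squares) on each array, as the difference from the mean of that probe over the 4 control arrays, with the group mean as a line. The Gclc values of the metformin arrays averaged 0.92 log2 units below the control mean, while the Gclm values lay on both sides of theirs.

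Promoter windows, from 250 bases before to 50 after a start site, were read from RefSeq sequence of GRCm38.p6 and held 7 of the 10 genes (Gclm, Txnrd1, Srxn1, G6pdx, Taldo1, Nqo1 and Osgin1). They were searched on both strands for the core of the antioxidant response element, TGACNNNGC, the sequence to which NRF2 and its MAF partner bind, and for its stricter form TGACTCAGC, which is 1 of the forms the first motif covers. The core was found in 4 of the 9 windows of these genes, 1 each of Gclm, Txnrd1, Srxn1 and G6pdx, and in 12.4% of all 32851 windows. The stricter form was found in 0 of the 9, and in 0.454% of all windows. Gclc, the only called member, had no window, nor had Hmox1 and Gsr. Among the regulators described below, the windows of Nfe2l2, Mafg and Mafk held a core and those of Keap1 and Bach1 did not. Of these, only the brighter Nfe2l2 probe passed. Mafg and Mafk held theirs 222 and 13 bases before the start site. The stretches below show the core, in capitals, for the 3 measured members with a match, none of which passed, and for Nfe2l2. They are printed along the gene's own strand, and the core of Gclm, Txnrd1 and Srxn1 reads on the opposite strand, so its letters appear there as the reverse complement.
Gclm, chr3:122245413-122245441, plus strand: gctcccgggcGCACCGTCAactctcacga
Txnrd1, chr10:82859104-82859132, plus strand: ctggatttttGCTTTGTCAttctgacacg
Srxn1, chr2:152105542-152105570, plus strand: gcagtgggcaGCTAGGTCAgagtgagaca
Nfe2l2, chr2:75704885-75704913, minus strand: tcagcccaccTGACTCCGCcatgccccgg
The core began 134 bases before the start site of Gclm, 92 before that of 1 of the 3 windows of Txnrd1, 28 bases after that of Srxn1 and 240 before that of Nfe2l2. No match in the windows of Taldo1, Nqo1 and Osgin1 says only that these letters are not in these windows, and a match is not shown to be a bound site.

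Thioredoxin and peroxiredoxins are kept reduced by enzymes that draw on NADPH or ATP. Txnrd1 encodes the cytosolic thioredoxin reductase, a selenoprotein. Its probe (ILMN_2484465) read 7.99, 8.32, 8.60 and 8.76 in metformin replicates 1 to 4, against 8.58, 9.09, 8.38 and 8.53 in control replicates 1 to 4. The metformin arrays spread on both sides of the lowest control array, and the change of -0.23 ± 0.20 log2 units (95% interval -0.68 to 0.22) did not pass, with a limma adjusted p of 0.544. Srxn1 encodes sulfiredoxin, which repairs over-oxidised peroxiredoxins.

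The brightest Srxn1 probe (ILMN_2677772) read 11.21, 11.02, 11.32 and 11.22 in metformin replicates 1 to 4, against 11.17, 11.58, 11.36 and 11.00 in control replicates 1 to 4. Its change was -0.09 ± 0.15 log2 units, while the other probes, ILMN_2667346 and ILMN_1229994, gave 0.14 ± 0.17 and 0.15 ± 0.17. The 3 probes thus differed in sign, and each change was smaller than its standard error. Their limma adjusted p lay between 0.65 and 0.77, and the upper bounds of their 95% intervals reached 0.53 log2 units. On each of the 3 probes metformin replicate 3 was the highest metformin array and control replicate 2 the highest control array.

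Taldo1 encodes transaldolase, which shuttles carbon between the pentose phosphate pathway and glycolysis. Its probe (ILMN_2675261) read 12.88, 12.51, 12.53 and 12.45 in metformin replicates 1 to 4, against 12.38, 12.02, 12.01 and 11.64 in control replicates 1 to 4. Every metformin array lay above every control array, by a gap of 0.07 log2 units between the nearest of them, and Taldo1 was the only 1 of the 11 probes whose groups did not overlap, where 14.6% of all probes had groups that did not (metformin arrays all above in 7.1%, all below in 7.46%). Taldo1 averaged 12.59 ± 0.20 in metformin wells and 12.01 ± 0.30 in control wells (SD, n = 4 each), a change of 0.58 ± 0.17 log2 units, or 1.49-fold, with a 95% interval of 0.20 to 0.96 (exact two-sided permutation p = 0.0286). It did not pass in the model over all probes, with a limma adjusted p of 0.0767. With the replicate number as a block it did, at a limma adjusted p of 0.0383 and the same change, and without control replicate 1 it had a change of 0.70 and a limma adjusted p of 0.0379. Without each of the other 7 arrays the limma adjusted p lay above 0.05 and reached 0.162.

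Nqo1 encodes a quinone reductase that uses NADH or NADPH and is often taken as a marker of NRF2 activity. Its brighter probe (ILMN_2726371) read 7.97, 7.23, 7.45 and 7.31 in metformin replicates 1 to 4, against 7.59, 7.94, 6.99 and 7.14 in control replicates 1 to 4. The groups overlapped over most of their range, with a change of 0.07 ± 0.23 log2 units, a 95% interval of -0.45 to 0.60 and a limma adjusted p of 0.882. The dimmer probe (ILMN_2766386) lay near the lower end of the scale, where changes can be understated, and read 4.37, 4.69, 4.44 and 4.47 in metformin replicates 1 to 4, against 4.68, 5.72, 4.50 and 4.61 in control replicates 1 to 4. Metformin replicates 1, 3 and 4 lay below every control array there, and metformin replicate 2 lay above control replicates 1, 3 and 4. Control replicate 2 stood more than 1 log2 unit above the other 7 arrays on that probe. Its change was -0.38 ± 0.25 (limma adjusted p = 0.397), and without that array it was -0.10.

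Hmox1 encodes heme oxygenase 1, which opens heme to biliverdin, iron and carbon monoxide, and which macrophages of the liver also express. Its probe (ILMN_2788073) read 8.28, 9.15, 8.56 and 8.89 in metformin replicates 1 to 4, against 8.76, 9.64, 9.14 and 8.61 in control replicates 1 to 4. Replicate 2 was the highest array of both groups, and the groups overlapped. The change was -0.31 ± 0.25 log2 units (95% interval -0.88 to 0.25, limma adjusted p = 0.503), and -0.11 without control replicate 2. Of 16 Kupffer cell and macrophage markers 13 were measured. None passed in limma or reached an unadjusted p under 0.05 (0 of 13), and 12 of the 13 had lower values with metformin, with a median change of -0.16. With the replicate block 2 were called lower, C1qc, a chain of complement C1q (-0.79 ± 0.37, limma adjusted p = 0.233, or 0.0437 with the block), and Vsig4, a complement receptor (-0.81 ± 0.57, limma adjusted p = 0.439, or 0.0450 with the block). The log2 of their summed intensity ran from 11.4 to 12.1 on metformin arrays and from 11.6 to 12.4 on control arrays. Clec4f, which marks resident Kupffer cells, was near the lower end of the scale at 4.62 ± 0.13 in metformin wells and 4.50 ± 0.24 in control wells (SD, n = 4 each). The brightest probe of Adgre1, a surface receptor of macrophages, averaged 6.94 ± 0.90 in metformin wells and 7.37 ± 1.07 in control wells (SD, n = 4 each), and the part of these cells in the Hmox1 values was not tested.

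Osgin1 encodes a growth inhibitor that is induced by oxidative stress. Its probe (ILMN_2645780) read 11.01, 11.20, 11.49 and 11.38 in metformin replicates 1 to 4, against 11.70, 10.98, 11.61 and 11.31 in control replicates 1 to 4. The groups overlapped, and the change was -0.13 ± 0.18 log2 units (95% interval -0.53 to 0.27, limma adjusted p = 0.715). Control replicate 2, the highest control array on most member probes, was the lowest here. Over the fits that left out 1 array the change ran from -0.27, with control replicate 2 left out, to -0.03, with control replicate 1 left out.

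The control arrays were therefore not alike across the programme. Control replicate 2 was the highest of the 4 controls on 9 of the 11 probes, those of Gclc, Gclm, Txnrd1, Srxn1, Nqo1 and Hmox1, where it was the highest on 27.1% of all probes. The probes of 1 gene share their target, so these are 6 genes. Among the metformin arrays no array led on more than 4 of the 11 probes. Without control replicate 2 the change was -0.81 log2 units for Gclc, -0.08 for Txnrd1 and 0.25 for the brighter Nqo1 probe.

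**Figure D3:**
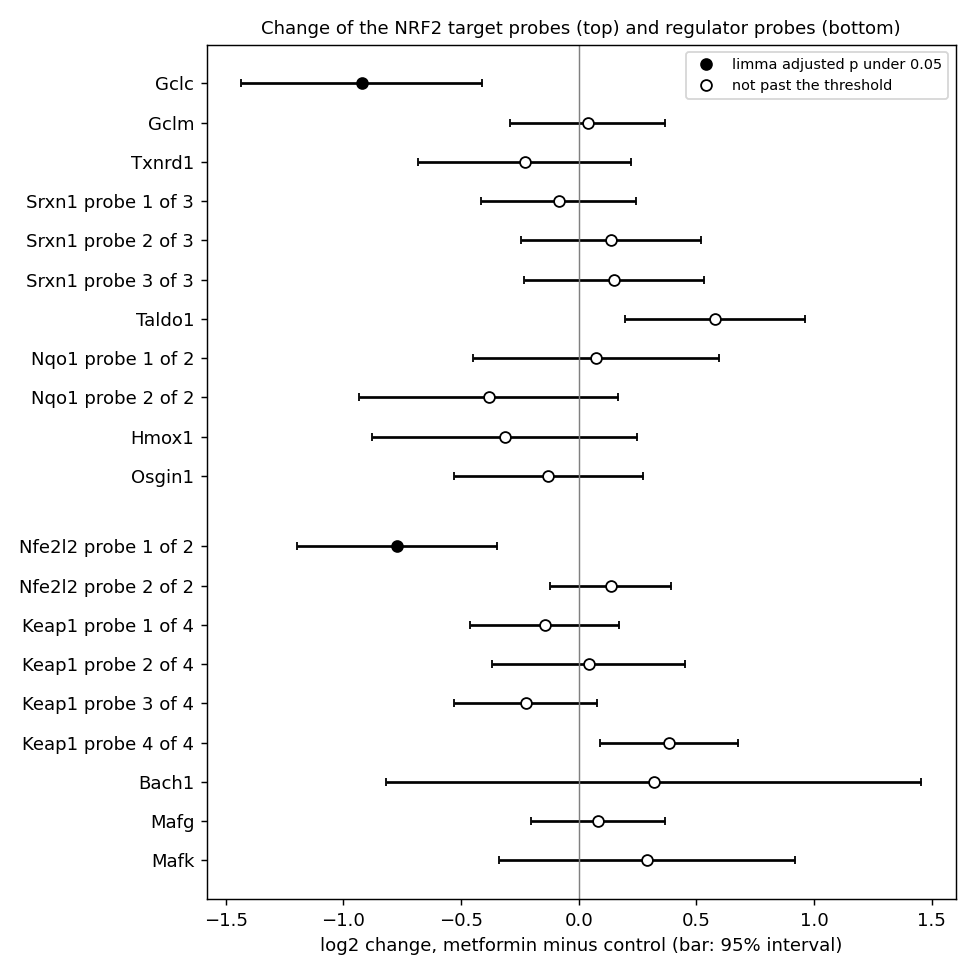
Log2 change, metformin minus control, of the 11 member probes (upper part) and of the 9 probes of Nfe2l2, Keap1, Bach1, Mafg and Mafk (lower part), with 95% intervals from the limma model on 4 metformin and 4 control arrays. Filled points had a limma adjusted p under 0.05, which only Gclc and the brighter probe of Nfe2l2 did.

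The regulators of the programme were measured on the same arrays. Nfe2l2 encodes NRF2 itself. Its brighter probe (ILMN_1224128) read 8.72, 8.14, 8.10 and 8.06 in metformin replicates 1 to 4, against 8.60, 9.20, 9.14 and 9.16 in control replicates 1 to 4. Metformin replicates 2, 3 and 4 lay below every control array, while metformin replicate 1 lay above control replicate 1. The probe fell by 0.77 ± 0.19 log2 units, with a 95% interval of -1.20 to -0.35 (limma adjusted p = 0.0460, exact two-sided permutation p = 0.0571). Its call was lost with the replicate block (limma adjusted p = 0.0743). It was also lost without control replicate 2, 3 or 4 (limma adjusted p = 0.109, 0.112 and 0.106) and without metformin replicate 2, 3 or 4 (0.120, 0.135 and 0.0924).

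The other Nfe2l2 probe was near the lower end of the scale, at 4.44 ± 0.15 in metformin wells and 4.31 ± 0.06 in control wells (SD, n = 4 each), with a change of 0.14 ± 0.12. The mean of both probes changed by -0.32 log2 units (limma adjusted p = 0.150). Keap1, the adaptor that marks NRF2 for degradation, had 4 probes whose changes ran from -0.23 to 0.38, and none of them passed (limma adjusted p from 0.117 to 0.918, 1 at an unadjusted p under 0.05). Bach1, the competing repressor, changed by 0.32 ± 0.51 log2 units, with the control arrays spread from 4.69 to 7.24. Mafg and Mafk, the small MAF partners, changed by 0.08 ± 0.13 and 0.29 ± 0.28. None of these 3 passed. In the list of 12 regulators 11 were measured, of which 1 fell and 0 rose, with a median change of 0.08 log2 units against 0.01 over all genes.

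**Figure D4:**
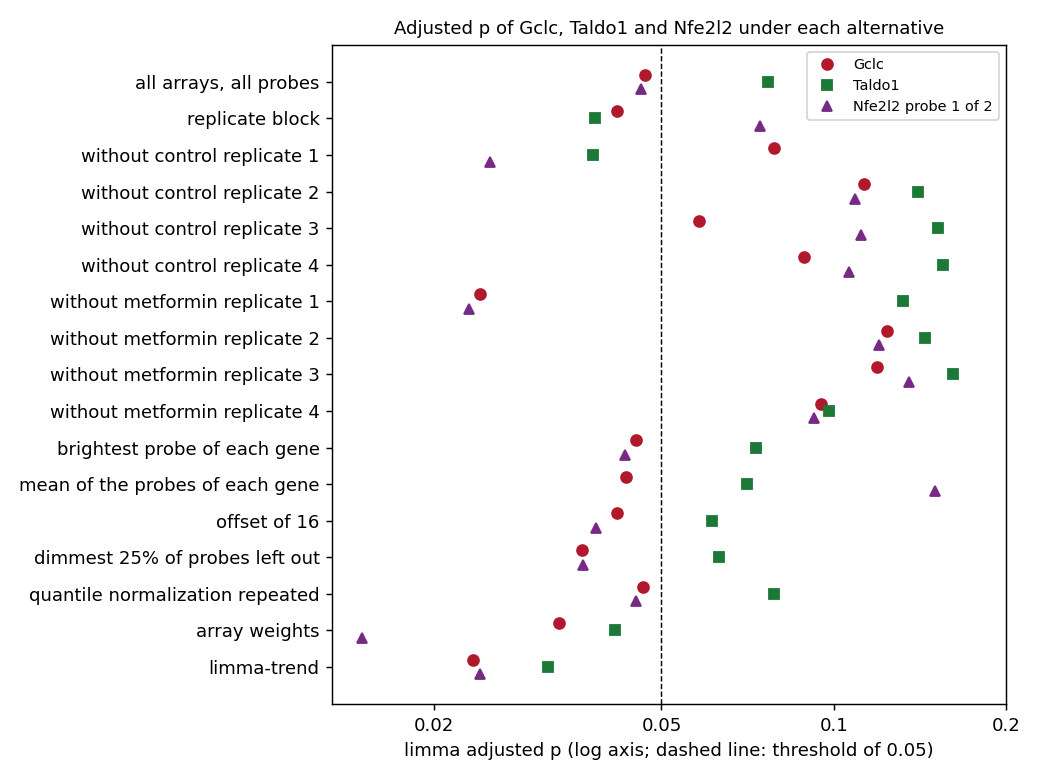
Limma adjusted p (log axis) of Gclc, Taldo1 and the brighter probe of Nfe2l2 in the model on all arrays and all probes and under each of 16 alternatives, with the threshold of 0.05 as a dashed line. Gclc lay left of the line on all arrays and crossed it in 7 of the 8 fits without 1 array, and Taldo1 crossed it in the other direction with the replicate block, without control replicate 1, with array weights and with limma-trend.

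Other genes of the pathway were read from 7 lists, each gene through its brightest probe. Of the 115 genes listed 93 were measured, 2 rose and 1 fell, which is 3.23% of them, where 5.94% of all 10944 genes were called, 2.98% higher and 2.96% lower. At an unadjusted p under 0.05 there were 16, or 17.2%, against 23.5% of all genes. The median change of the 93 was 0.02 log2 units, against 0.01 over all genes. The 3 called were Nfe2l2, Msrb3 and Ftl1.

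Among 24 measured other targets of NRF2, limma called 0, and 4 reached an unadjusted p under 0.05, with a median change of 0.03 log2 units. The smallest p was that of Cyp2a5, a cytochrome P450 of coumarin oxidation, whose 4 probes changed by 0.49 to 1.06 log2 units. Its brightest probe averaged 11.73 ± 0.39 in metformin wells and 10.81 ± 0.40 in control wells (SD, n = 4 each; change 0.91 ± 0.24, limma adjusted p = 0.0535). With the replicate block its limma adjusted p was 0.0174, and it was 0.0453 without control replicate 1 and 0.0286 without metformin replicate 4. Some Cyp2a genes are near-identical copies, so Cyp2a5 is uncertain as a single gene. Abcc2, which exports glutathione conjugates into bile, changed by 0.56 ± 0.19 at its brightest probe (limma adjusted p = 0.117). Its dimmer probe gave 0.23 ± 0.19 (limma adjusted p = 0.511).

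Of 19 measured other glutathione genes limma called 0, and 2 reached an unadjusted p under 0.05, with a median change of 0.03 log2 units. These were Glo1, the glyoxalase that clears methylglyoxal with glutathione, at -0.37 ± 0.15 (limma adjusted p = 0.168), and Glrx3, a glutaredoxin, at -0.25 ± 0.11 (limma adjusted p = 0.216). In both the metformin arrays lay below every control array at the brightest probe, while dimmer probes of Glrx3 gave -0.12 and 0.15. Of 13 measured other thioredoxin genes 1 rose and 0 fell, with a median of -0.09, and 5 reached an unadjusted p under 0.05, of which 4 had negative changes (Txn1, Txnip, Msrb2 and Nxn). Txn1, which encodes thioredoxin itself, changed by -0.58 ± 0.19 (limma adjusted p = 0.106). The log2 of the list's summed intensity ran from 14.65 to 14.946 on metformin arrays and from 14.952 to 15.05 on control arrays. These sums narrowly did not overlap, while those of every other pathway list did, and they are given after their values were seen. Bright genes weigh most in such a sum. The brightest here, Prdx1 at a level of 13.99, changed by -0.09 ± 0.12 (limma adjusted p = 0.711). The riser was Msrb3, a methionine sulfoxide reductase, at a dim probe that averaged 5.54 ± 0.02 in metformin wells and 4.92 ± 0.23 in control wells (SD, n = 4 each; change 0.62 ± 0.13, limma adjusted p = 0.0294). Its call was lost without control replicate 2 or 3 and without metformin replicate 2, 3 or 4, with a limma adjusted p of up to 0.0852, and with limma-trend, at 0.0616. With the replicate block 2 members of that list were called lower. They were Txnip, an inhibitor of thioredoxin (-1.28 ± 0.49, limma adjusted p = 0.154, or 0.0147 with the block), and Msrb2, a mitochondrial methionine sulfoxide reductase (-0.57 ± 0.15, limma adjusted p = 0.0566, or 0.0399 with the block), and these 2, Txn1 and Nxn were named after their values were seen.

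NADPH and pentose phosphate genes other than the members had 0 of 13 past the limma threshold and 2 at an unadjusted p under 0.05, with a median of -0.13 log2 units. The smallest p were those of Prps2, which makes phosphoribosyl pyrophosphate from ribose phosphate (-0.41 ± 0.12, limma adjusted p = 0.0743), and Tkfc, a kinase of dihydroxyacetone (-0.67 ± 0.26, limma adjusted p = 0.159). Tkfc was on this list but is not itself an enzyme of the pentose phosphate pathway. Taldo1 and Prps2 thus had changes of opposite sign, and neither passed.

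The list of heme breakdown and iron storage genes also held genes of heme synthesis (Alas1 and Fech) and of heme or iron transport (Slc48a1 and Slc40a1). Among its 9 measured genes 1 rose and 0 fell, with a median of 0.10 and 2 at an unadjusted p under 0.05. Ftl1, the light chain of ferritin, rose by 1.02 ± 0.20 log2 units at a dim probe, with 6.15, 5.61, 5.85 and 5.98 in metformin replicates 1 to 4, against 5.35, 4.48, 4.64 and 5.06 in control replicates 1 to 4 (limma adjusted p = 0.0249). Its groups did not overlap. The other gene at an unadjusted p under 0.05 went the opposite way. It was Fth1, the heavy chain of ferritin, at a bright probe with a level of 14.08 (-0.35 ± 0.13, limma adjusted p = 0.149, groups overlapping). The Ftl1 call was not stable. Leaving out control replicate 2, control replicate 3, metformin replicate 2 or metformin replicate 3 ended it, with a limma adjusted p of up to 0.0733. Near-identical copies of ferritin light chain make Ftl1 uncertain as a single gene. Superoxide dismutases and catalase had 0 of 4 past the limma threshold and 0 at an unadjusted p under 0.05, with Sod1 at 0.20 ± 0.14 and Cat at 0.21 ± 0.19.

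**Figure D5:**
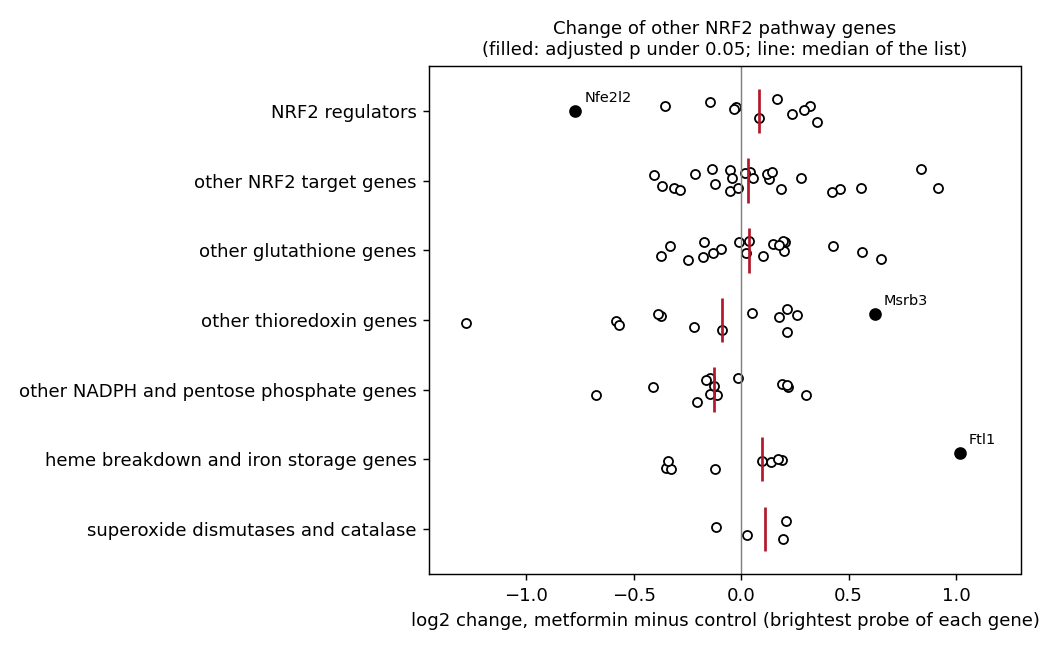
Log2 change, metformin minus control, of the genes of 7 NRF2 pathway lists, each gene as 1 point at its brightest probe, with the median of the list as a line. The 3 filled points, Nfe2l2, Msrb3 and Ftl1, had a limma adjusted p under 0.05, and the list medians lay between -0.13 and 0.11.

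Markers of other liver cells were read on the same arrays. The 5 measured of 9 biliary markers had a median change of 0.91 log2 units, 3 of them at an unadjusted p under 0.05, and the log2 of their summed intensity ran from 9.82 to 10.6 on metformin arrays and from 8.96 to 9.67 on control arrays. These sums did not overlap. The 12 sinusoidal endothelial markers had a median of 0.45, 2 of them at an unadjusted p under 0.05, with summed values of 10.4 to 12.1 on metformin arrays and 10.2 to 11.4 on control arrays. The 12 measured of 13 stellate cell and fibroblast markers had a median of 0.07, 1 of them at an unadjusted p under 0.05, with 12.6 to 13.2 on metformin arrays and 12.7 to 13.2 on control arrays. The endothelial and the stellate sums overlapped between the groups. Changes were positive for 4 and negative for 1 of the biliary markers, 10 and 2 of the endothelial ones, and 7 and 5 of the stellate ones. Of all 10944 genes 5606 had positive and 5338 negative changes, with a median of 0.01. An unadjusted p under 0.05 was reached by 23.5% of all genes. In each of these 3 marker lists limma called 0 without the block. With the replicate block the biliary keratins Krt19 (0.91 ± 0.45, limma adjusted p = 0.263, or 0.0205 with the block) and Krt23 (1.21 ± 0.38, 0.0947, or 0.0118 with the block) were called higher. So were the endothelial markers Lyve1 (1.28 ± 0.44, limma adjusted p = 0.114, or 0.0450 with the block), Tek (0.85 ± 0.28, 0.102, or 0.0444 with the block) and Fcgr2b (0.61 ± 0.41, 0.413, or 0.0488 with the block). These markers were named after their values were seen, and the part of these cells in the values of Gclc, Taldo1 and Nfe2l2 was not tested. The share of all genes called with the block is not given here, so the calls with the block have no background beside them.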

How the data were processed

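The deposited log2 intensities of 16304 probes on 8 arrays were used as the authors made them, with 0 missing values. The submitters' processing notes name R 3.2.3 and limma 3.26.9 without a role. How the authors corrected background, normalized and filtered probes is not given in the sources used here. All arrays share nearly 1 distribution, and detection p-values were not used here. Symbols came from GEO's platform annotation (15301 with 1 symbol, 0 with several, 1003 unnamed), and 15294 symbols were updated by Entrez number through RefSeq's GRCm38.p6 gene table. A linear model, metformin minus control, was fitted to every probe on all 8 arrays with limma 3.58.1 in R 4.3.3 and two-sided p-values were adjusted over all probes (Benjamini-Hochberg, threshold 0.05). Errors of changes are standard errors, and those of means are SDs. The model was tested on simulated data with 200 of the 16304 probes changed. It called 6 of 50 changes of 0.5 log2 units, 29 of 50 of 1, 27 of 50 of -1 and 49 of 50 of 2. Of 16104 unchanged probes it called 8. Changes of up to 1 log2 unit were thus often missed there. In the deposited data 920 probes were called, more than were changed in the simulation, so these rates need not carry over. The deviations of same-numbered arrays from their group means correlated at 0.27, 0.25, 0.13 and 0.20, all over 0.1. Wells were therefore treated as pairable by number, on the data alone, and the model with the number as a block is given where it changes a call. The shares of all probes and genes called that are given here belong to the model without the block. All members were reported, and from each list the up to 4 called genes with the smallest adjusted p, or the 2 with the smallest p where none was called. Members and lists were chosen with earlier results of these data known.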

Additional observations from a re-analysis of the deposited data

Results flagged for a closer look

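On the dimmer probe of Nqo1, control replicate 2 read 5.72 log2 units, while the other 3 control arrays lay between 4.50 and 4.68. Its gap to the nearest array was 0.857 of the range of the 4 control arrays, above Dixon's 95% critical value for 4 samples. It was the only such value among the 22 groups of 4 arrays tested (11 probes in 2 groups), where chance gives about 1 in 20. The cause was not tested.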

How the results depend on the processing

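Over 16 alternatives Gclc kept its sign, between -1.11 and -0.80 log2 units without 1 array, and passed in the 8 that kept all arrays (limma adjusted p = 0.0235 to 0.0464). The number of lower member probes was 0 to 1 without 1 array and that of higher ones 0 to 1. Taldo1 was 0.46 to 0.70 without 1 array, and it passed with the replicate block (0.58), array weights (0.58) and limma-trend (0.58), each of which made 1 member higher. Other member calls were not changed by the block. Signs turned for uncalled values: the brighter Nqo1 probe gave -0.15 as the mean of its probes and -0.084 to 0.25 without 1 array, Gclm -0.066 to 0.11, and the brightest Srxn1 probe 0.067 as the mean of its probes and -0.18 to 0.016 without 1 array. Among regulators, a Keap1 probe at 0.043 gave -0.14 to 0.14 without 1 array and -0.065 with array weights, the brightest Keap1 probe gave 0.014 as the mean of the probes, and Bach1 gave -0.25 (without control replicate 1) to 0.60 without 1 array. The cause was not tested.

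Of other NRF2 targets 1 was higher with the replicate block, the offset of 16, the dimmest 25% left out and limma-trend, 2 with array weights, and 0 to 2 without 1 array. Of other thioredoxin genes 0 were higher with limma-trend and 0 to 1 without 1 array. Lower ones numbered 2 with the block, 1 with the mean of probes, the offset, the dimmest left out or array weights, and 0 to 1 without 1 array. Of NRF2 regulators 0 were lower with the block or the mean of probes, and 0 to 1 without 1 array. Of NADPH genes 1 was lower with the offset, and 0 to 1 without 1 array. Of heme and iron genes 0 to 1 were higher, and 0 to 1 lower, without 1 array. Over all probes 443 were higher and 477 lower, against 802 and 862 with array weights, and 69 to 521 and 107 to 565 without 1 array. Fits without 1 array held fewer samples.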
